A study of Ovis aries with 30 samples.

Results

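UCP1 and 4 other genes of brown fat heat production, PPARGC1A, KCNK3, SLC25A5 and GPD2, were examined in the epicardial adipose tissue (EAT) of 30 sheep. Members were chosen by gene name, full name or gene number in the annotation of a 1-colour Agilent sheep expression array. The 5 genes had 8 of the 15008 probes on the array, and were 5 of 867 genes that could be named. UCP1, SLC25A5 and GPD2 had 1 probe each, KCNK3 had 2 and PPARGC1A had 3. GPD2 is listed on the array only as LOC443090, and was matched through that gene number. Its probe was designed on an expressed sequence tag and was not checked against a GPD2 transcript, so its sequence is not shown and its values rest on that name.

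The samples were taken from 8 Control fetuses at term and 6 CORT fetuses at term, and from 7 Control lambs and 9 CORT lambs at 2 weeks of age. Ewes of CORT fetuses received cortisol at 1 mg/kg/day and ewes of CORT lambs received 0.5 mg/kg/day, in both cases starting on gestational day 115. Control ewes had no infusion. For the lambs the infusion was given overnight and ended at delivery. The study describes its other model, at 1 mg/kg/day, as a continuous infusion. The offspring themselves received no cortisol, so that CORT names the treatment of the ewe. The lambs were delivered by their ewes and housed with them. The study had a set of twins in each treatment of lambs, the labels do not identify them, and all animals were treated as independent. The doses differed between the ages, so CORT fetuses and CORT lambs were not compared with each other.

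Brown adipocytes make heat by letting protons return across the inner mitochondrial membrane without the synthesis of ATP. UCP1 is the carrier that provides this leak, and fatty acids are both its activators and the fuel. In lambs and other newborn ruminants, fat depots that are rich in UCP1 before birth are known to take on the character of white fat in the weeks after birth. PPARGC1A encodes the coactivator PGC-1α, which drives mitochondrial biogenesis and UCP1 transcription. SLC25A5 encodes an ADP/ATP carrier of the inner membrane, GPD2 the mitochondrial glycerol-3-phosphate dehydrogenase that passes electrons from cytosolic glycerol-3-phosphate to the respiratory chain, and KCNK3 the potassium channel TASK-1.

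The probes are shown because each value below is the signal of these 60 bases alone. Capitals mark the run that a probe shares with another probe of the same gene. The array gives no genome position for them, and the place of each probe is known only within the transcript it was designed on.
UCP1 (A_70_P002806): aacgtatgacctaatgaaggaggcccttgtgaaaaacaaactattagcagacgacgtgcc
SLC25A5 (A_70_P032816): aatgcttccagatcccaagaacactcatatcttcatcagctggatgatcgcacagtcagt
PPARGC1A (A_70_P049666): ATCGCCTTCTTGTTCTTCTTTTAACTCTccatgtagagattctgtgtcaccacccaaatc
PPARGC1A (A_70_P049667): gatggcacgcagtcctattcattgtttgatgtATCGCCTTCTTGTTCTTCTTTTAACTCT
PPARGC1A (A_70_P002736): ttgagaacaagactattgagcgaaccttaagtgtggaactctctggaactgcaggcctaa
KCNK3 (A_70_P003551): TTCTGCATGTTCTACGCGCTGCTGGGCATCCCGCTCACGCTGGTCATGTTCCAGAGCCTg
KCNK3 (A_70_P003552): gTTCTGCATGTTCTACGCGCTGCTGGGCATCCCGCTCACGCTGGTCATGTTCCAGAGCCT

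The KCNK3 probes share 59 bases and are close to a repeat of the same measurement. The first pair of PPARGC1A probes shares 28 bases. The third probe was designed on another PPARGC1A sequence and shares no run above 7 bases with them. GC content was 45% in the UCP1 and SLC25A5 probes, 35% in the GPD2 probe (A_70_P041596) and 60% in both KCNK3 probes. UCP1 and SLC25A5 belong to the mitochondrial carrier family, and 3 relatives on the array served as a comparison:
UCP3 (A_70_P002796): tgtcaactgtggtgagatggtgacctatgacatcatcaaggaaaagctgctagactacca
SLC25A4 (A_70_P011181): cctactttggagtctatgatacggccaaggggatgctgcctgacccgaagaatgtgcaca
SLC25A6 (A_70_P033021): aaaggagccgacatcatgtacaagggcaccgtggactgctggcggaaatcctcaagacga
In the best alignment without gaps, the UCP1 probe matched this UCP3 probe at 23 of 39 bases, with no shared run above 7 bases. The SLC25A5 probe matched SLC25A4 at 19 of 29 bases and SLC25A6 at 23 of 59 bases, with no shared run above 5 bases.

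Values are log2 intensities normalized together over the 30 arrays, on which a difference of 1 is a 2-fold difference in intensity. This intensity includes an offset of 50 from the background correction, which makes the differences and folds of dim probes smaller. Levels were not compared between probes, since brightness also depends on the probe. Spots well above background made up 70.4% to 83.5% on each array. Arrays of the same group correlated at 0.956 to 0.993. Fetuses lay on slides 1 and 2 and lambs on slides 3 and 4, with both treatments on every slide, so age cannot be told apart from slide and treatment can. Of 22 fat cell genes listed for this check, 12 had a named probe, and FABP4, PLIN1, LPL and PPARG were well above background in all animals. Adiponectin had no named probe. The mean of 4 striated muscle markers was 13.03 in Control fetus 2 against 7.45 to 10.66 in the other 29 animals. Member calls with maturation are also given without Control fetus 2. Among lambs, Control lamb 6 had the highest of these means, 10.66, and the lowest mean of the 12 fat cell genes, 10.60. It was also the lowest Control lamb in UCP1, at 9.34. CORT lamb 9 had the next highest muscle mean among lambs, 10.51, with a fat cell mean of 10.97, and the highest UCP1 of all lambs, at 12.71. A relation of UCP1 to these means was not tested.

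UCP1 was strongly expressed in every fetus and much lower in every lamb. In Control fetuses its log2 intensity was 13.75 at the lowest, 14.79 at the median and 15.56 at the highest. In Control lambs these values were 9.34, 10.75 and 11.91. The brightest Control lamb lay below the dimmest Control fetus, so the ages did not overlap. The mean fell by 4.19 (SE 0.35; 95% interval -4.93 to -3.46), from 14.73 ± 0.58 (SD, n = 8) to 10.54 ± 0.89 (SD, n = 7), or 18.3-fold (limma adjusted p = 1.68e-07; exact two-sided permutation p = 1.55e-04). That exact p is the smallest that the 6435 splits of these animals can give. Of 12872 probes tested in this comparison, UCP1 had rank 1 by size of fall. UCP1 remained above background in the lambs, with a raw foreground of 491 to 4052 in Control lambs against 17758 to 64819 in Control fetuses. In bulk tissue, fewer cells that express a gene and less RNA per cell cannot be told apart.

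**Figure D1:**
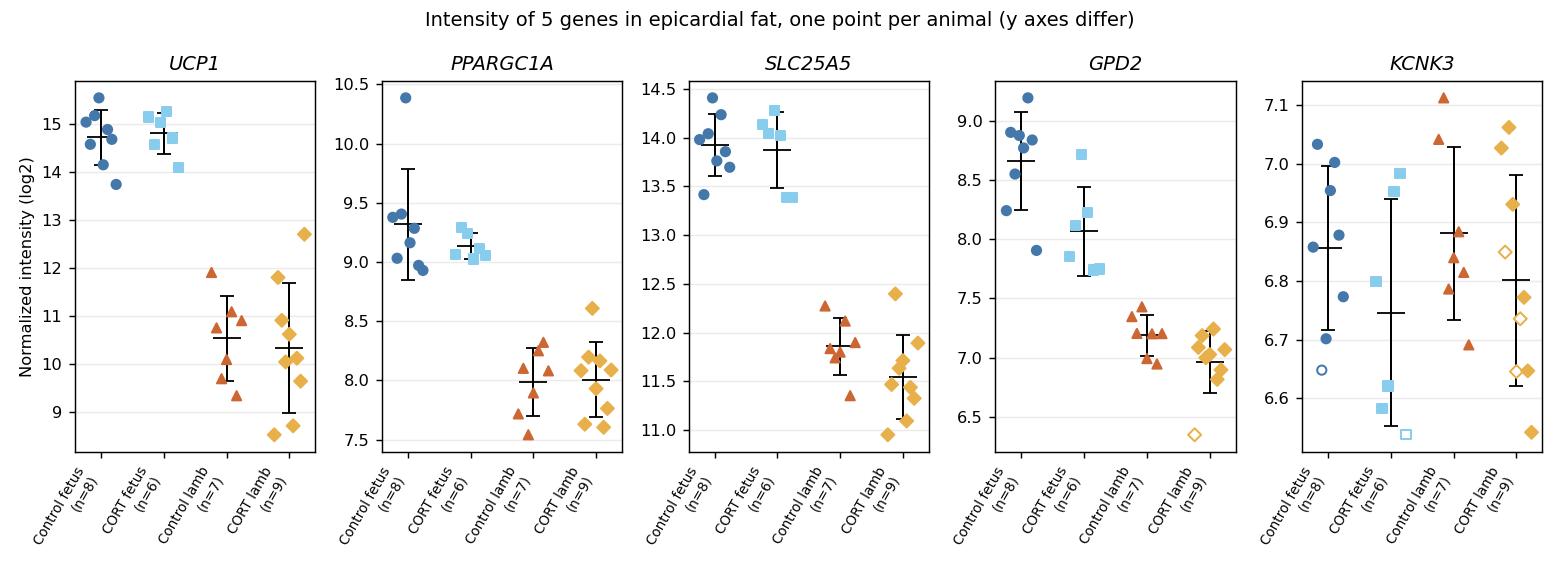
Normalized log2 intensity (vertical axis, a different scale in each panel) of the main probe of UCP1, PPARGC1A, SLC25A5, GPD2 and KCNK3 in each animal of the 4 groups; bars are the mean ± SD and open points are spots not well above background. UCP1, PPARGC1A, SLC25A5 and GPD2 were lower in all Control lambs than in all Control fetuses, and UCP1 in CORT lambs ran from 8.52 to 12.71.

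SLC25A5 fell with maturation as well. Control fetuses ranged from 13.41 through a median of 13.92 to 14.41, and Control lambs from 11.35 through 11.84 to 12.27. The gap between the dimmest fetus and the brightest lamb was larger than the range within either group. The mean changed by -2.06 (SE 0.15), or 4.18-fold (limma adjusted p = 4.26e-08; exact permutation p = 1.55e-04), which was rank 16 among all falls.

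The other ADP/ATP carriers on the array changed by under 1 log2 unit, and of these SLC25A6 passed the test. SLC25A6, the carrier found in most tissues, went from 14.45 ± 0.16 to 13.66 ± 0.15, a change of -0.79 (SE 0.08; limma adjusted p = 1.17e-06). SLC25A4, the carrier of heart and skeletal muscle, changed by -0.89 (SE 0.35) and did not pass (limma adjusted p = 0.0550). UCP3, the muscle relative of UCP1, was dim at both ages, with means between 6.88 and 7.00 for its 2 probes in Control animals, and its probes changed by 0.11 and -0.07 (limma adjusted p = 0.290 and 0.685). The differences between these changes and that of UCP1 or SLC25A5 were not tested.

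GPD2 went from a low, a median and a high of 7.90, 8.80 and 9.19 in Control fetuses to 6.94, 7.20 and 7.43 in Control lambs. All 7 lambs lay below all 8 fetuses, although the gap was narrower than for UCP1 and the lamb values were near the dim end of the scale. The change of the mean was -1.47 (SE 0.16), or 2.77-fold (limma adjusted p = 1.93e-06; exact permutation p = 3.11e-04), and it was -2.38 (SE 0.24) from the scanner software's corrected intensity. Its spots were well above background in all Control animals.

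PPARGC1A fell in all 3 of its probes. The main probe ranged from 8.93 through 9.22 to 10.39 in Control fetuses and from 7.54 through 8.08 to 8.32 in Control lambs. Control fetus 4 stood nearly 1 log2 unit above the next fetus, and the other 7 fetuses lay between 8.93 and 9.40. The change was -1.33 (SE 0.19), or 2.52-fold (limma adjusted p = 3.15e-05; exact permutation p = 1.55e-04), and it was -1.18 without Control fetus 4 (limma adjusted p = 3.26e-06). The other probes changed by -1.49 and -1.26 (limma adjusted p = 1.33e-05 and 8.71e-06). Over the 30 arrays, deviations from the group means correlated at 0.97 between the overlapping probes and at 0.88 and 0.89 with the third, which describes the agreement of separate spots on the same RNA.

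KCNK3 values overlapped between the ages. Its main probe ranged from 6.65 through 6.87 to 7.03 in Control fetuses and from 6.69 through 6.84 to 7.11 in Control lambs. The change was 0.03 (SE 0.08; 95% interval -0.14 to 0.19; limma adjusted p = 0.817), and the second probe changed by -0.07. Under scaling to the 75th percentile, the main probe changed by 0.26 (SE 0.10) and was called (limma adjusted p = 0.0380). The 2 probes, which share all but 1 base, correlated at only 0.32 in their deviations, and between 0 and 3 animals of a group had a spot of KCNK3 that was not well above background. Its raw foreground was 74.7 to 131 over both probes, beside a median local background of 34 to 46, so a small change was not detectable at this signal.

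By limma, 4 of the 5 genes passed an adjusted p under 0.05 in the comparison of Control lambs with Control fetuses, all of them lower in lambs. Of all probes tested, 21.3% were called lower, 20.3% higher and 41.6% in either direction, so such calls were common on these arrays. The groups did not overlap, with lambs lower, for the same 4 genes and for 8.49% of all probes. Without Control fetus 2, the animal with muscle markers, 4 genes were again called, and UCP1 changed by -4.21. Under scaling to the 75th percentile all 5 genes were called, KCNK3 as higher. UCP1 in Control fetuses had means of 15.09 on slide 1 and 14.37 on slide 2, and in Control lambs 10.61 on slide 3 and 10.44 on slide 4.

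**Figure D2:**
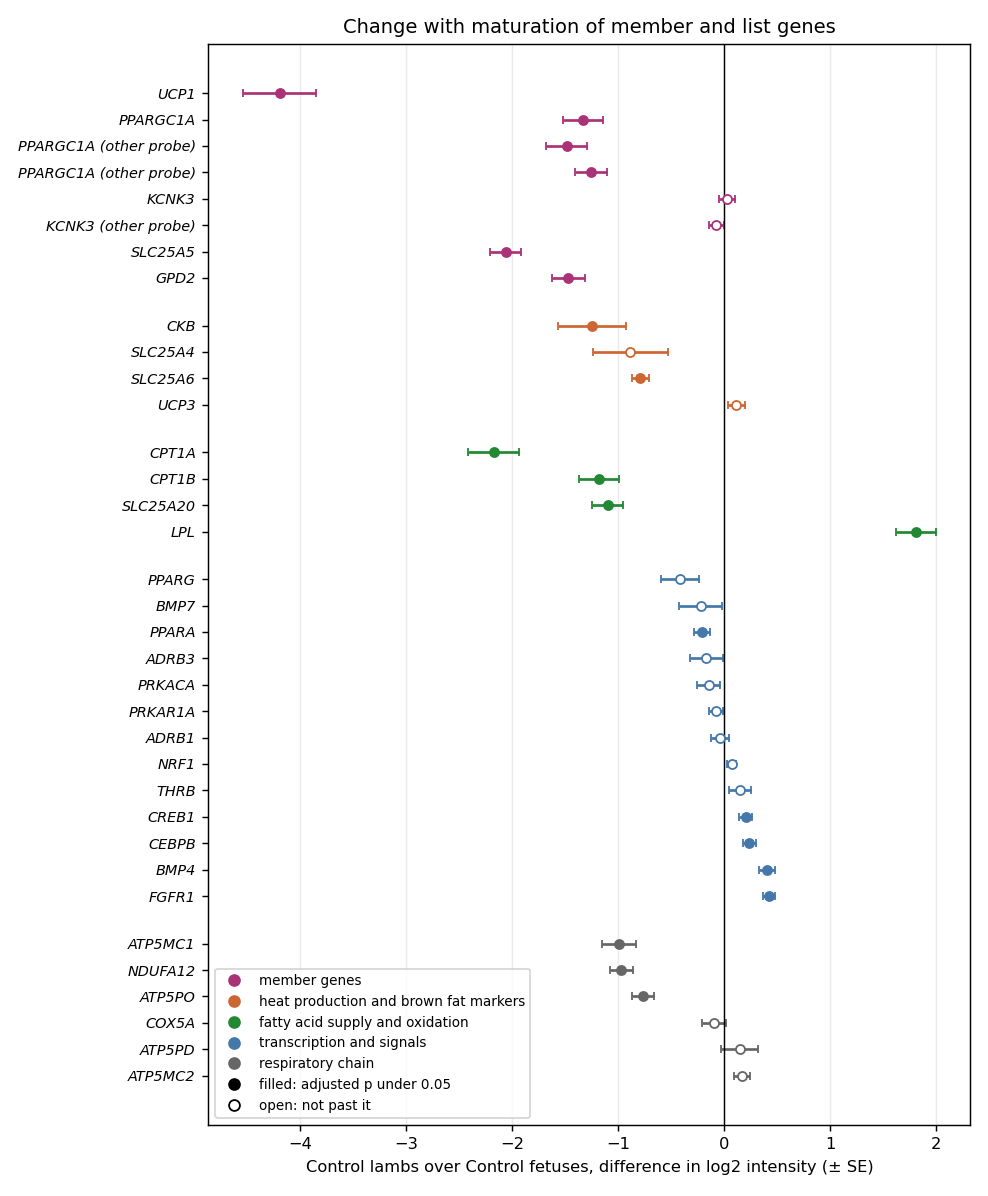
Change with maturation (horizontal axis, Control lambs over Control fetuses in log2 intensity, with bars of 1 SE) for the 8 probes of the member genes, the 21 tested thermogenesis genes by role and the 6 respiratory chain genes; filled points passed an adjusted p under 0.05. UCP1 lies far to the left at -4.19, and LPL at 1.81 is the furthest to the right.

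Other genes of brown fat heat production were taken from a list with 3 roles. A probe could be named for 23 of them, and 21 were tested. By limma, 5 rose with maturation, 6 fell and 10 did not pass, with a median change of -0.15 against -0.01 for all probes. Of all probes tested, 20.3% were called higher and 21.3% lower, so calls in either direction were common. Of 4 genes of fatty acid supply and oxidation, 3 fell. CPT1A changed by -2.18 (SE 0.24), CPT1B by -1.18 (SE 0.19) and SLC25A20 fell 2.15-fold (SE 0.15 on the log2 scale). These encode the carnitine palmitoyltransferases and the carnitine carrier that bring long-chain fatty acids into mitochondria. LPL, the lipase that frees fatty acids from circulating triglyceride, rose by 1.81 (SE 0.19) in a fit that used 7 of the 8 Control fetuses because 1 spot was an outlier.

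Of 4 genes of heat production and brown fat markers other than the members, 2 fell. These were SLC25A6 and CKB, the brain-type creatine kinase, which changed by -1.25 (SE 0.32; limma adjusted p = 0.00464). In the transcription and signalling role, 4 of 13 genes rose and 1 fell, each by less than 0.5. FGFR1, a fibroblast growth factor receptor, rose by 0.42 (SE 0.06), BMP4, a signal of the bone morphogenetic protein family, by 0.40 (SE 0.07), and the transcription factor CEBPB by 0.24 (SE 0.06). PPARA, a nuclear receptor that activates fatty acid oxidation genes, changed by -0.21 (SE 0.08; limma adjusted p = 0.0369). PPARG, the nuclear receptor that directs fat cell differentiation, changed by -0.42 (SE 0.18; limma adjusted p = 0.0719), and the β-adrenergic receptor genes ADRB3 and ADRB1 by -0.17 and -0.04, none of them past the threshold. Dividing each array by its 75th percentile in place of quantile normalization moved the median change of all probes from -0.01 to 0.14, and under it 7 genes rose and 6 fell. Over all alternatives run, 4 to 7 genes rose.

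Respiratory chain and ATP synthase subunits were measured by 6 genes. Of these, 3 fell and 0 rose, beside 21.3% lower and 20.3% higher among all probes. ATP5MC1 changed by -0.99 (SE 0.16), NDUFA12 by -0.97 (SE 0.10) and ATP5PO by -0.77 (SE 0.11). ATP5MC1 and ATP5PO are subunits of ATP synthase, and NDUFA12 is a subunit of complex I. COX5A, ATP5PD and ATP5MC2 did not pass, with changes of -0.10, 0.15 and 0.17. Among lambs, the mean of the 6 genes was highest in Control lamb 6, at 13.53.

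UCP1 was also set against these genes within each animal. The mean of the 6 respiratory chain genes changed by -0.42 with maturation, and UCP1 fell by 3.77 more than that mean (SE 0.43; exact two-sided permutation p = 1.55e-04). The mean of 12 adipocyte genes changed by 0.22, and UCP1 fell by 4.42 more than it (SE 0.37; exact two-sided permutation p = 1.55e-04). UCP1 had the largest fall of all probes tested, so both tests repeat that of UCP1 itself and give no separate support. Of these adipocyte genes LPL, SCD and LEP rose, DGAT1 fell by 1.44, and 8 did not pass. The adipocyte mean ran from 10.49 to 11.30 in Control fetuses and from 10.60 to 11.72 in Control lambs.

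Markers of other cell types moved with age too, on arrays where 20.3% of all probes were called higher and 21.3% lower. All 3 fibroblast markers measured, COL1A2, COL3A1 and DCN, were higher in Control lambs, with a mean per animal of 11.12 to 12.39 in Control fetuses and 13.07 to 13.44 in Control lambs. Of 4 myeloid markers 2 were higher, and of 6 endothelial markers 2 were lower, FLT1 with a change of -0.52 and NOS3 with -1.09. None of 4 striated muscle, 3 lymphoid, 2 erythroid and 1 mesothelial markers passed. Their part in the changes of UCP1 and the other members was not tested.

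Cortisol given to the ewe was compared with its controls at each age, to see whether it moved these genes. In lambs UCP1 ranged from 9.34 through 10.75 to 11.91 in the Control group and from 8.52 through 10.12 to 12.71 in the CORT group. The CORT lambs held both the lowest and the highest UCP1 value of all lambs, and they enclosed the Control range. The mean was 10.54 ± 0.89 (n = 7) in Control lambs and 10.34 ± 1.36 (n = 9) in CORT lambs, a difference of -0.20 (SE 0.54; 95% interval -1.33 to 0.93; limma adjusted p = 1.00; exact permutation p = 0.743). The interval admits both a fall to under the Control level by more than 2-fold and a rise of nearly 2-fold. Within slides 3 and 4 it was -0.29 and -0.08. The direction rested on single animals: without CORT lamb 1, CORT lamb 6 or Control lamb 1 the difference was 0.03, 0.01 and 0.03.

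The other members in lambs had smaller errors. SLC25A5 ranged from 11.35 to 12.27 in Control and from 10.95 to 12.40 in CORT lambs, and 7 of the 9 CORT lambs lay below the Control mean. The difference was -0.31 (SE 0.18; 95% interval -0.68 to 0.06; exact permutation p = 0.123), and it was -0.30 on each slide. GPD2 ranged from 6.94 to 7.43 in Control and from 6.35 to 7.24 in CORT lambs, with 8 of 9 CORT lambs below the Control mean, and the difference was -0.23 (SE 0.11; 95% interval -0.46 to 0.01; exact permutation p = 0.0599). Without CORT lamb 1, the dimmest animal in both genes, these differences were -0.24 and -0.15.

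PPARGC1A means in lambs were 7.99 ± 0.28 and 8.01 ± 0.32, a difference of 0.02 (SE 0.14; 95% interval -0.28 to 0.32). The 2 lamb slides gave opposite values, 0.32 on slide 3 and -0.31 on slide 4, and all 3 probes did so. KCNK3 differed by -0.08 (SE 0.08) in its main probe and by 0.01 in the other. Its main probe was dimmer on slide 4 than on slide 3 in both treatments, with CORT means of 6.67 and 6.97. By limma 0 of the 5 genes passed an adjusted p under 0.05 in lambs, as did 0% of all probes. At an unadjusted p under 0.05, 0 of the 5 genes and 3.56% of all probes passed.

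In fetuses UCP1 overlapped between the treatments. Its values were 13.75, 14.79 and 15.56 (lowest, median, highest) in Control fetuses and 14.11, 14.88 and 15.27 in CORT fetuses, which all lay inside the Control range. The means of 14.73 ± 0.58 (n = 8) and 14.81 ± 0.43 (n = 6) differed by 0.08 (SE 0.26; 95% interval -0.47 to 0.63; exact permutation p = 0.782), with -0.17 on slide 1 and 0.32 on slide 2. Under scaling to the 75th percentile it was -0.21. SLC25A5 differed by -0.05 (SE 0.17), with both CORT fetus 5 and CORT fetus 6 below the whole Control range at 13.38 and the other 4 CORT fetuses between 14.02 and 14.27. Within slides 1 and 2 it differed by 0.19 and -0.29.

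GPD2 was the member with the smallest p in fetuses. Its values were 7.90, 8.80 and 9.19 in Control fetuses and 7.74, 7.98 and 8.71 in CORT fetuses. The groups overlapped, with 3 of the 6 CORT fetuses below all controls and 5 below the Control mean. The means of 8.66 ± 0.41 and 8.07 ± 0.37 differed by -0.59 (SE 0.20; 95% interval -1.01 to -0.17), or 1.51-fold. The exact permutation p was 0.0216 and the limma p 0.00892, which was 1.00 after adjustment over all probes, so this difference did not pass. It was -0.41 on slide 1 and -0.77 on slide 2. At an unadjusted p under 0.05, 1 of the 5 genes and 2.37% of all probes passed, and at the adjusted threshold 0 of the 5 genes and 0% of all probes. Under scaling to the 75th percentile, which moved the median of all probes by 0.27, the GPD2 difference was -0.34 (limma unadjusted p = 0.186).

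PPARGC1A in CORT fetuses lay within a narrow band of 9.03 to 9.29, and its difference from Control fetuses was -0.19 (SE 0.18; exact permutation p = 0.460). All 6 CORT fetuses lay below the Control mean, which Control fetus 4 raised, and without that animal the difference was -0.03. KCNK3 differed by -0.11 (SE 0.09) and its second probe by 0.03, and under scaling to the 75th percentile the main probe differed by 0.55 (SE 0.36).

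**Figure D3:**
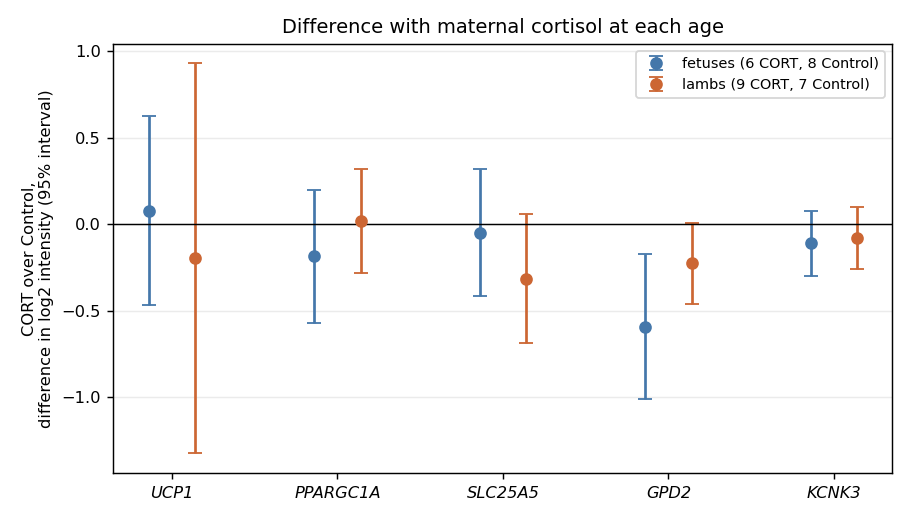
Difference between CORT and Control animals in log2 intensity (vertical axis, with 95% intervals from limma) for the 5 genes, in fetuses and in lambs. The interval of GPD2 in fetuses, -1.01 to -0.17, lies below 0, and that of UCP1 in lambs, -1.33 to 0.93, is the widest.

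The difference between the cortisol effects, lambs less fetuses, compares 2 doses, and possibly 2 infusion schedules, as well as 2 ages. It was -0.28 (SE 0.65) for UCP1, -0.27 (SE 0.26) for SLC25A5, 0.37 (SE 0.23) for GPD2, 0.21 (SE 0.24) for PPARGC1A and 0.03 (SE 0.12) for KCNK3, which was -0.64 under scaling to the 75th percentile. By limma 0 of the 5 genes passed an adjusted p under 0.05, as did 0% of all probes, and at an unadjusted p under 0.05 it was 0 of the 5 genes and 2.05% of all probes.

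No gene of the thermogenesis or respiratory chain lists passed the adjusted threshold in a comparison of treatments, and 0 of the 27 tested had an unadjusted limma p under 0.05. Among all probes only 3.56% in lambs, 2.37% in fetuses and 2.05% for the difference between the effects had such a p. A count of 0 therefore says little about these lists. In lambs the smallest p-values belonged to BMP4, with a difference of 0.20 (SE 0.10), NDUFA12, with -0.24 (SE 0.14), and SLC25A20, with -0.27 (SE 0.16). In fetuses they belonged to CEBPB (-0.14, SE 0.07), the signalling gene BMP7 (0.27, SE 0.15) and CPT1A (-0.40, SE 0.24). For the difference between the effects they were LPL (-0.54, SE 0.30), BMP7 (-0.41, SE 0.28) and PPARG (0.29, SE 0.23). The respiratory chain list held only 6 genes. The study reported COX5B, COX6C, COX6B1 and NDUFAB1 as lower in EAT of CORT lambs, at an unadjusted p. None of these had a named probe here, so the list could not include them.

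Animals of the same group differed widely in UCP1. The range between the lowest and the highest animal was 1.81 log2 units in Control fetuses, 1.16 in CORT fetuses, 2.57 in Control lambs and 4.19 in CORT lambs, where it was 3.28 without CORT lamb 9. The SD of UCP1 among CORT lambs, 1.36, was exceeded by 0.280% of all tested probes, whose median SD there was 0.191. Without CORT lamb 9 the SD was exceeded by 0.691% of probes. In Control lambs the SD was 0.887, exceeded by 1.03% of probes, and without Control lamb 1 it was 0.712, exceeded by 1.61%. In Control fetuses it was 0.577, exceeded by 3.47%, and the share ran from 1.70% without Control fetus 2 to 6.68% without Control fetus 8. In CORT fetuses it was 0.432, exceeded by 6.54%, and without CORT fetus 6 it was 0.290, exceeded by 16.7%. Whether the spread differs between the groups was not tested.

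SLC25A5 followed UCP1 from animal to animal. Deviations from the group means correlated at r = 0.74 in the 16 lambs (permutation p = 0.00241, adjusted over 8 relations 0.0193) and at rho = 0.84 (adjusted permutation p = 0.00144). Without the 2 lambs farthest from the median of UCP1, r was 0.69, and within slides 3 and 4 it was 0.64 and 0.92. CORT lamb 1 and CORT lamb 6 were the lowest lambs in both genes of their group, and CORT lamb 3 was highest in SLC25A5 while CORT lamb 9 was highest in UCP1. In the 14 fetuses r was 0.70 (permutation p = 0.00646, adjusted 0.0258) and rho 0.67 (adjusted permutation p = 0.0535), with r = 0.66 without the 2 farthest fetuses and 0.63 and 0.62 within slides 1 and 2. The fetal relation rested in part on single animals: without Control fetus 4 or CORT fetus 6, r was 0.62 and 0.63 and the adjusted permutation p was 0.109 and 0.0950.

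**Figure D4:**
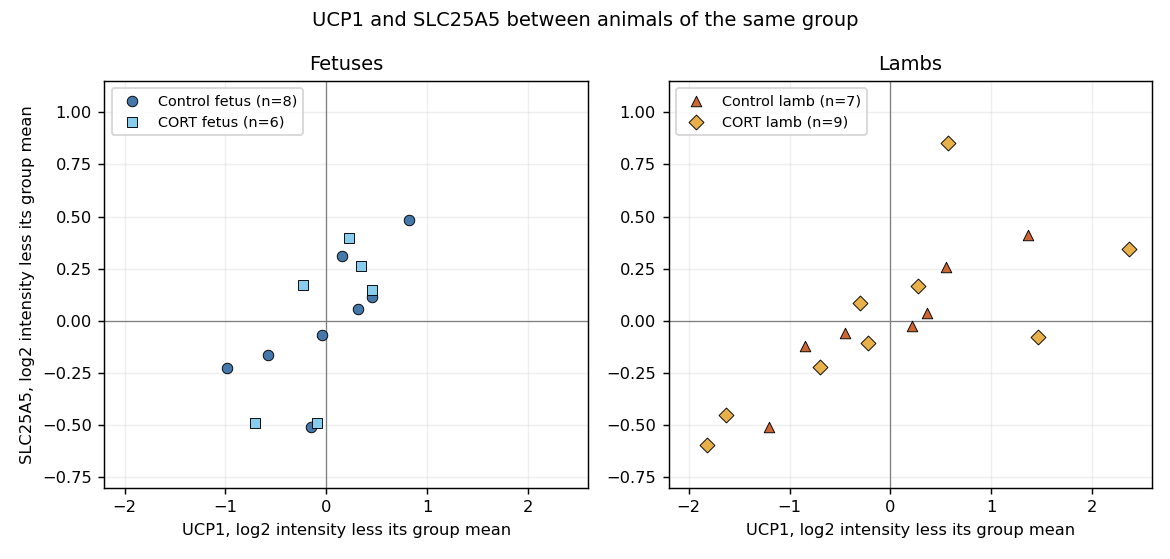
Deviation of each animal from its group mean in log2 intensity, UCP1 (horizontal axis) against SLC25A5 (vertical axis), for 14 fetuses and 16 lambs on the same scales. Points run from lower left to upper right at both ages, with r = 0.70 in fetuses and 0.74 in lambs.

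The other members did not pass at either age, although PPARGC1A in fetuses and GPD2 in lambs passed under some alternatives. PPARGC1A correlated with UCP1 at r = 0.63 in fetuses (adjusted permutation p = 0.0826; rho = 0.50), but at 0.28 without the 2 farthest fetuses, so the relation rested on them, and at -0.15 in lambs. The fetal relation passed from the scanner software's corrected intensity (r = 0.69, adjusted permutation p = 0.0187) and without CORT fetus 4 (r = 0.68, adjusted permutation p = 0.0459). GPD2 gave r = 0.45 at both ages (adjusted permutation p = 0.212), and 0.13 in fetuses and 0.19 in lambs without the 2 farthest animals. In lambs it passed without CORT lamb 6 (r = 0.68, adjusted permutation p = 0.0320). KCNK3 gave 0.05 and -0.10 (adjusted permutation p = 0.873 and 0.827). These relations varied between slides. On slides 1 and 2, r with UCP1 was 0.72 and 0.44 for PPARGC1A, -0.11 and 0.74 for GPD2 and -0.37 and 0.75 for KCNK3. On slides 3 and 4 it was -0.25 and -0.02 for PPARGC1A, 0.68 and 0.14 for GPD2 and 0.11 and -0.58 for KCNK3.

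As a description of likeness, 748 named genes were ranked by the correlation of their deviations with those of UCP1 over all 30 arrays, which share their normalization. SLC25A5 had rank 1 with r = 0.70. It was followed by GRPEL1, a cochaperone of mitochondrial protein import, with 0.65, DGAT1, the enzyme of the last step of triglyceride synthesis, with 0.65, XDH, xanthine dehydrogenase, with 0.64, and TRIP4, a transcriptional coactivator, with 0.63. For TRIP4 the likeness came from the lambs, with r = 0.77 there and -0.02 in fetuses, and for GRPEL1 it was 0.67 and 0.78. The lowest were YWHAH, a 14-3-3 protein, with -0.59, the glutamate receptor gene GRIA1 with -0.56 and the copper chaperone gene ATOX1 with -0.55. In lambs and in fetuses r was -0.67 and -0.45 for YWHAH, -0.71 and -0.009 for GRIA1 and -0.65 and -0.23 for ATOX1. The median over all genes was -0.02. GPD2 had rank 62 with 0.36, PPARGC1A rank 260 with 0.09 and KCNK3 rank 439 with -0.06.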

How the data were processed

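Total RNA of EAT was labelled and hybridized to 1-colour arrays of 15744 spots. Per the labels the dye was Cy3. The authors deposited scanner files with mean foreground and median local background intensity of each spot, made with Agilent Feature Extraction 10.1.1.1, and a matrix of log2 values that they had background corrected and quantile normalized in limma. The 16 lamb columns of that matrix followed the scanner values (Spearman rho 0.99955 to 0.99983 over 11828 probes) and served as an alternative. Its 14 fetal columns did not follow the scanner values of the same arrays (rho -0.00837 to -0.00385 over 9119 probes). They were used in no result, so all fetal and maturation values rest on the scanner files alone, and which deposited version of the fetal data is right was not tested.

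The intensities were background corrected with limma 3.58.1 in R 4.3.3 (normexp, offset 50) and quantile normalized over 30 arrays after outlier spots, 3 to 17 per array, were removed. Probes spotted more than once were averaged. Probes at least 10% brighter than the 95th percentile of 77 negative control spots on at least 6 arrays were tested, 12872 of 15008. Precision is limited by the number of animals and by signal over background (median foreground 132 to 240, background 34 to 46).

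Each probe was tested with lmFit and eBayes, two-sided, on the compared groups only, with Benjamini-Hochberg adjustment over all tested probes. Exact tests used all splits of the animals, and correlations 100000 permutations within groups. Where a gene had more than 1 probe, the brightest on average over 30 arrays stands for it, and all member probes are described. From the thermogenesis and respiratory chain lists, up to 12 genes with the largest called change with maturation and the 3 with the smallest p in each cortisol comparison are named. BMP7 and PPARG follow from these rules. PPARA, ADRB1, ADRB3, SLC25A4, UCP3, COX5A, ATP5PD and ATP5MC2, as well as the marker genes given by name were chosen after their values were seen. From UCP1 likeness, the 5 highest and 3 lowest genes are named. The members and lists were chosen with earlier results of these data known. Gene names came from the array annotation and a gene table of assembly ARS-UI_Ramb_v3.0. The genome, transcripts and promoters were not analysed here. The fits were tested on simulated data. The promoter motif search was not run. Alternatives covered background correction, normalization, filter, slide, array weights, pairing, single animals, the samples in a fit, the deposited lamb values and the choice of probe. Replicate numbers were not taken as pairs. Same-numbered animals of Control fetuses and Control lambs deviated together in 1 of 7 pairs, those of lambs in 5 of 7 and those of fetuses in 3 of 6 (correlation over 0.1). Most same-numbered animals of the same age also shared a slide, so these counts cannot tell pairing from slide.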

Additional observations from a re-analysis of the deposited data

Results flagged for a closer look

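The highest and lowest animal of each group was compared with its neighbours for all 8 probes, which is 32 groups, and Dixon's 95% criterion marks about 1 group in 20 by chance. It marked 3. Control fetus 4 stood apart in 2 overlapping probes of PPARGC1A, at 10.39 against 9.40 for the next animal (gap over range 0.673) and at 10.46 against 9.53 (0.620). In the third probe this fetus was also the highest, at 9.73, without meeting the criterion. It was the highest fetus in UCP1 (15.56) and SLC25A5 (14.41) too. CORT lamb 1 stood apart in GPD2, at 6.35 against 6.81 for the next lamb (0.523), on a spot not well above background, and it was the lowest lamb in UCP1 (8.52) and SLC25A5 (10.95).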

How the results depend on the processing

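In maturation, UCP1 ran from -4.42 to -3.99, SLC25A5 from -2.14 to -1.98, PPARGC1A from -1.79 to -1.18 and GPD2 from -2.38 (under the scanner software's corrected intensity) to -1.39 over all alternatives run, including those without 1 animal, and each stayed past the adjusted threshold in every one. Under scaling to the 75th percentile, which called 4780 probes higher and 2236 lower (68.1% higher against 48.7%), KCNK3 was called too, with a change of 0.26 (limma adjusted p = 0.0380), so 5 genes passed. Its second probe gave -0.074, and leaving out 1 animal gave -0.013 to 0.057.

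Differences with cortisol changed sign where they were small, and no member was called under any alternative run. For UCP1 in fetuses it was -0.21 under scaling to the 75th percentile, -0.093 with the replicate block, -0.17 within slide 1 and from -0.062 to 0.22 without 1 animal. For UCP1 in lambs it was -0.49 to 0.031 without 1 animal. For PPARGC1A in lambs the other probes gave -0.0012 and -0.089, slide 4 gave -0.31, and leaving out 1 animal gave -0.054 to 0.077. For SLC25A5 in fetuses, slide 1 gave 0.19 and leaving out 1 animal -0.13 to 0.0498. For KCNK3 in fetuses, scaling to the 75th percentile gave 0.55 and the other probe 0.033. In lambs the other probe gave 0.0092 and slide 3 gave 0.022. For its difference between the ages, the scanner software's corrected intensity gave -0.069, the 75th percentile -0.64, the other probe -0.024 and leaving out 1 animal -0.012 to 0.077. The cause of these changes was not tested. At an unadjusted limma p under 0.05, the number of members that passed ran from 0 to 2 in lambs over all alternatives run. It ran from 0 to 1 in fetuses and from 0 to 1 for the difference between the ages.

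The correlation of UCP1 with KCNK3 in fetuses was -0.13 under the scanner software's corrected intensity, -0.45 under the 75th percentile, -0.20 under cyclic loess and -0.15 to 0.22 without 1 animal, and in lambs it was -0.22 to 0.20 without 1 animal. With PPARGC1A in fetuses it passed under the scanner software's corrected intensity (0.69, adjusted permutation p = 0.0187) and without CORT fetus 4 (0.68), with a range of 0.51 to 0.68 without 1 animal. With GPD2 in lambs it passed without CORT lamb 6 (0.68; range 0.20 to 0.68), and with SLC25A5 in fetuses the range was 0.62 to 0.75. The difference of UCP1 from the respiratory chain and adipocyte means kept its direction and passed under all alternatives run for it. The replicate block changed no call of a member. In fetuses 1 probe of all tested was called with the block and 1 without CORT fetus 2, against 0. The number of animals limits what could be detected, and KCNK3 and the lamb values of GPD2 are limited by their signal over background. Leaving out single animals for the spread of UCP1 was chosen after seeing the data.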
